A study of Mus musculus with 6 samples.

Results

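Metallothioneins and the membrane transporters that work beside them set how much zinc is free inside a liver cell. The genes described here are 7 in number: Mt1, Mt2, Mtf1, Slc39a14, Slc39a4, Slc30a1 and Slc30a10. They were chosen by name: every probe set that the array's annotation assigns to 1 of these symbols was taken, which gave 17 of the 45037 probe sets that are not controls and 7 of 18193 genes. Whole liver of 18-week-old male mice on regular chow was profiled on a 3' expression array, with 3 arrays for the New Zealand Obese strain (NZO) and 3 for the comparison strain BKS, or C57BL/KS. NZO mice become obese and diabetic by this age, and the design text calls the mice littermates. The titles of the BKS samples carry the mark wt. The labels name no transgene, drug or diet for either group. A strain comparison of this kind carries every genetic difference between the strains at once.

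Metallothioneins are small, cysteine-rich proteins that bind zinc and copper, and the liver is one of their main sites of synthesis. Their transcription is switched on by the zinc-sensing factor Mtf1, which binds metal response elements in their promoters, and it is also raised by glucocorticoids and by interleukin-6. ZIP transporters (Slc39a) bring zinc into the cytosol and ZnT transporters (Slc30a) remove it. Slc39a14 and Slc30a10 also carry manganese, into and out of the hepatocyte.

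RefSeq start-site windows (build GRCm38.p6) were found for 5 of the 7 genes. Mt1 and Mt2 are adjacent on chromosome 8, their starts 6471 bases apart with no other listed gene between them. The sequences are shown because both genes and the zinc exporter Slc30a1 are textbook targets of Mtf1. Each is the 250 bases before the RefSeq start, 5' to 3' on the gene's strand, which is the plus strand for all 3. Capitals mark the core letters of the metal response element, searched as TGCACNC and TGCGCNC on either strand.
Mt1, chr8:94178839-94179088: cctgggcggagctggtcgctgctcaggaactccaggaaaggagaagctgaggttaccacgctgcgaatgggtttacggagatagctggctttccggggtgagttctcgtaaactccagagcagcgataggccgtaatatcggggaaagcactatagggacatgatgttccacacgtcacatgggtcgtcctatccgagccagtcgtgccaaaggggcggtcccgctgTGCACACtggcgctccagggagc
Mt2, chr8:94172368-94172617: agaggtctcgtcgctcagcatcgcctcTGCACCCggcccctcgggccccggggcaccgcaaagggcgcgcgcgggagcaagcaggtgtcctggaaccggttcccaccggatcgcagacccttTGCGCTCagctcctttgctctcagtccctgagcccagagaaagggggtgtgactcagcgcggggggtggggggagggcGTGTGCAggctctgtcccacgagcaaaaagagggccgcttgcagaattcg
Slc30a1, chr1:191906531-191906780: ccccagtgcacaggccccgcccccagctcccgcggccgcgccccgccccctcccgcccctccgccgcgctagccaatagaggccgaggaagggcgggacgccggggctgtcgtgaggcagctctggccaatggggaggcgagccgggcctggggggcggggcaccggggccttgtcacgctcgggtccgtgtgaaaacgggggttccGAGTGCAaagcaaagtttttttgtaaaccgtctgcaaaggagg
In the windows of 300 bases, which add the 50 bases after the start, Mt1 held 3 separate matches and Mt2 held 4. In Mt1, 1 of the 3 lay before the annotated start (TGCACAC) and the others after it (TGCACTC and TGCGCTC). Before and after refer to the RefSeq start, and where transcription begins in these livers was not measured. In Mt2, 3 of the 4 lay before the start. Slc30a1 and Slc30a10 each had 2 separate matches and Mtf1 had 0. Among 32851 windows of the same length, 25.7% held at least 1 match, 6.14% at least 2, 1.31% at least 3 and 0.295% at least 4. A match is a run of letters and does not show that the factor binds there.

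The main result for Mt1 and Mt2 was a very large spread between livers of the same strain, with no strain difference past the test. Values are log2 expression, so a step of 1 is a doubling. Mt1, by the probe set 1422557_s_at, read 12.24, 9.79 and 8.19 in BKS replicates 1, 2 and 3, and 8.91, 13.25 and 12.15 in NZO replicates 1, 2 and 3. Within each strain the arrays therefore spanned most of the range seen between strains, and the groups overlapped. The lowest and highest BKS arrays differed 16.6-fold and the lowest and highest NZO arrays 20.3-fold. The strain means were 10.07 ± 2.04 (SD, n = 3) and 11.44 ± 2.26, a log2 difference of 1.36 (NZO minus BKS) with a 95% confidence interval from -1.70 to 4.42 (limma, adjusted p = 0.766). Of the 3 NZO arrays 2 were high and 1 was low, and of the 3 BKS arrays 1 was high. The interval includes no change and also large changes in either direction.

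Mt2, by the probe set 1428942_at, followed the same order of arrays. It read 11.84, 8.69 and 7.06 in BKS and 7.64, 12.04 and 10.98 on the NZO arrays. The arrays high in Mt1 were thus the arrays high in Mt2, and from highest to lowest both genes ran NZO replicate 2, BKS replicate 1, NZO replicate 3, BKS replicate 2, NZO replicate 1 and BKS replicate 3. The span was 27.5-fold among BKS arrays and 21.0-fold among NZO arrays. The strain means were 9.20 ± 2.43 (SD, n = 3) and 10.22 ± 2.29, a log2 difference of 1.02 with a 95% confidence interval from -2.34 to 4.38 (limma, adjusted p = 0.858). An exact permutation test over the 6 arrays (two-sided, smallest possible p 0.1) gave p = 0.5 for Mt1 and p = 0.7 for Mt2.

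A second probe set of Mt1, 1451612_at, read 5.95, 5.49 and 5.28 in BKS and 5.61, 6.79 and 5.67 on the NZO arrays. These values lie near the array medians of 5.08 to 5.22, and the span was smaller than for the first probe set. Its top 3 arrays were the same, in the same order, and BKS replicate 3 was again the lowest. Its strain difference was 0.45 (limma over all probe sets, adjusted p = 0.756). The first probe set is of the type whose name ends in _s_at, which can match more than 1 transcript.

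**Figure D1:**
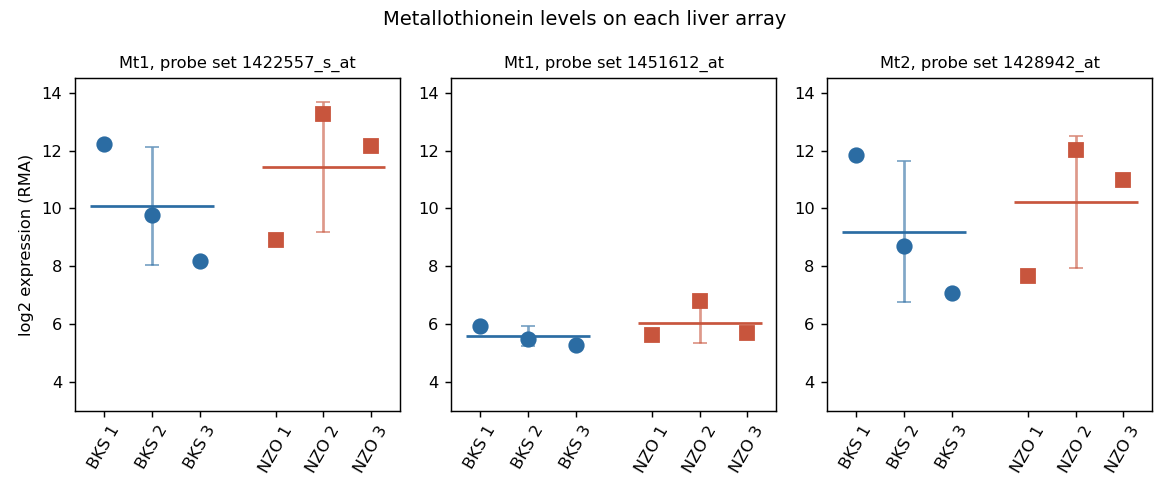
Log2 expression (vertical axis) of the Mt1 and Mt2 probe sets on each of the 6 liver arrays, with BKS as blue circles and NZO as red squares; horizontal lines are strain means and bars 1 SD (n = 3). In the left and right panels each strain holds both high and low arrays, with Mt1 from 8.19 to 13.25 and Mt2 from 7.06 to 12.04, while the second Mt1 probe set stays between 5.28 and 6.79.

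The strain difference of Mt1 and Mt2 had opposite signs in different sets of arrays. In both strains 1 array carries the number 1 in its title, here replicate 1. These arrays stood apart in the spiked-in hybridization controls, which are added bacterial transcripts and averaged 8.90 (BKS) and 7.88 (NZO) there against 9.78 to 11.2 on the other 4 arrays. Between the number 1 arrays Mt1 differed by -3.33 and Mt2 by -4.20 (NZO minus BKS, 1 array each, no test). Between the other 2 and 2 arrays Mt1 differed by 3.71 (limma, adjusted p = 0.00933) and Mt2 by 3.63 (adjusted p = 0.0100), where 5.01% of all genes passed. In these 4 arrays the 18S rRNA probe set read 11.92 and 9.47 in BKS and 6.14 and 5.38 in NZO, so it moved with this comparison, and its part in it was not tested. With the number 1 arrays as a block, the adjusted p was 0.580 for Mt1 and 0.735 for Mt2. The number 1 array was the highest of the 3 for BKS and the lowest of the 3 for NZO. Without BKS replicate 3 the difference was 0.42 for Mt1 and -0.05 for Mt2, and without NZO replicate 2 it was 0.46 and 0.11. Without BKS replicate 1 it was 2.45 and 2.34, and without NZO replicate 1 it was 2.63 and 2.31, again with no call.

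Set against all genes, this spread was extreme. The standard deviation between arrays of the same strain, pooled over both strains, was 2.15 for Mt1 and 2.36 for Mt2, against a median of 0.26 and a 99th percentile of 0.82 over 18193 genes. Mt2 ranked 3 and Mt1 ranked 6 of all genes. The others among the top 6 were Sod1, a copper and zinc enzyme, Insig1, which restrains sterol synthesis, Dbp, a clock output factor, and Saa2, an acute-phase protein. The other 5 members had standard deviations of 0.18 (Slc30a10), 0.29 (Slc30a1), 0.40 (Mtf1), 0.44 (Slc39a14) and 0.52 (Slc39a4). In Slc30a10 the spread was below the median of all genes, and in the remaining 4 it was above it but below 0.61, the 95th percentile.

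**Figure D2:**
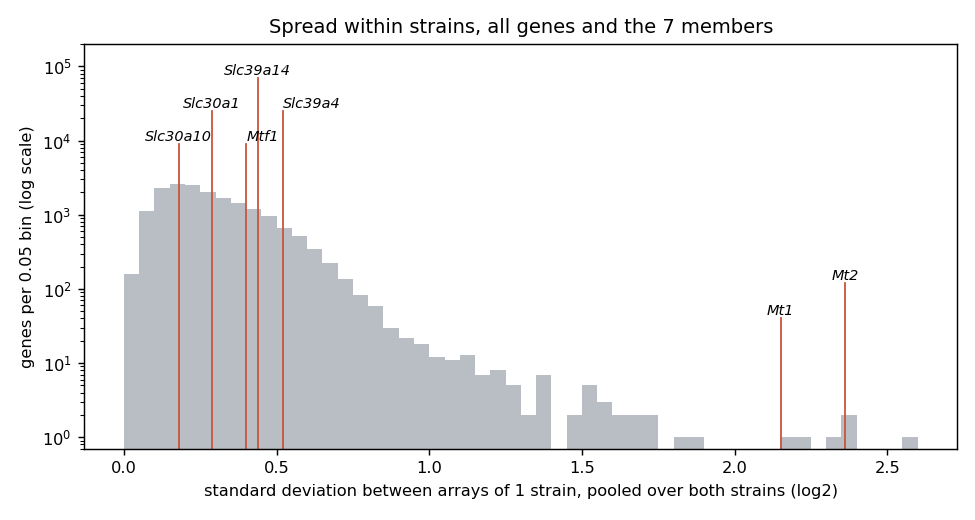
Histogram of the pooled within-strain standard deviation (log2, horizontal axis) of 18193 genes, with the number of genes per bin of 0.05 on a log axis; red lines mark the 7 members. Mt1 (2.15) and Mt2 (2.36) lie far out in the tail, and the other 5 members lie between 0.18 and 0.52, within the bulk.

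The genes whose values ran most like Mt1 over the 6 arrays were C1qb (Pearson r = 0.984), Lyz1 (0.981), Clec4g (0.978), Mbnl2 (0.977) and Fgl1 (0.975), out of 5120 genes with a mean of at least 6 and a range of at least 1. For Mt2 they were Wfdc17 (0.990), Ccar1 (0.980), Ccnl1 (0.978), Dcn (0.973) and Ttc39b (0.971). These correlations describe 6 arrays that fall into 3 with high and 3 with low metallothionein signal, and share the arrays and their quality. C1qb and Lyz1 are macrophage genes, Clec4g marks the sinusoidal endothelium, and Dcn (decorin) is a matrix proteoglycan of stellate cells and fibroblasts. Mbnl2, Fgl1, Wfdc17, Ccar1, Ccnl1 and Ttc39b were not assigned to a cell type here, so the rankings name no single cell type. C1qb read 8.64, 7.91 and 7.69 in BKS and 7.67, 9.07 and 8.58 in NZO, so it was high on the 3 arrays with high Mt1, over a much smaller range.

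The 8 markers of Kupffer cells, the resident macrophages of liver, varied over the arrays partly as the metallothioneins did. Their mean level was 7.83, 7.20 and 6.95 on the BKS arrays and 7.09, 7.88 and 7.59 in NZO, which is the same ranking of the 6 arrays as for Mt1 and Mt2 with a span of less than 1 on the log2 scale. None of the 8 had that full order by itself, which only 20 of 18193 genes had. The 3 highest arrays were those of Mt1 (BKS replicate 1, NZO replicates 2 and 3) for 5 of the 8, namely Clec4f, Vsig4, Cd5l, Csf1r and Cd68, where 5.32% of all genes had this. They were other arrays for Adgre1, Timd4 and Marco, and Marco read 5.76, 5.56 and 5.48 in BKS and 4.91, 5.35 and 5.62 in NZO. Timd4, Marco and Cd68 averaged below 6, and none of the 8 passed the strain test. The 7 stellate cell markers ran from 6.96 to 7.51 in BKS and from 7.03 to 7.47 in NZO. Their mean had the array order of Mt1 except that BKS replicate 1 stood above NZO replicate 2, and 2 of the 7 had its 3 highest arrays. The 7 sinusoidal endothelial markers ran from 6.64 to 6.98 in BKS and from 7.06 to 7.75 in NZO, again with 2 of 7. The 7 hepatocyte markers measured, of 8 listed, stayed between 13.77 and 13.78 in BKS and read 12.95, 13.94 and 13.97 on the NZO arrays. The tissue label thus held on every array, and NZO replicate 1 had the lowest hepatocyte signal. That array also had the lowest hybridization controls (7.88), and the part of the array's signal scale in its marker values was not tested. In bulk tissue, more cells of a type and more RNA per cell cannot be told apart, and the part of these cells in the metallothionein values was not tested. The mean of the 4 T and NK cell markers measured, of 6 listed, was highest in NZO replicate 1 (6.60 against 5.59 to 5.89 on the others). Cd8a read 9.55 there against 6.41 to 6.70 on the others, and Cd3e was also highest there. Cd3g and Nkg7 were highest in NZO replicate 3. The bile duct, B cell and adipocyte means were also highest in NZO replicate 1, at 5.91, 5.64 and 5.23. Those of neutrophil, erythroid and pancreatic acinar cells were highest on other arrays. None of these lists, nor the T and NK cell list, had a member past the test.

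**Figure D3:**
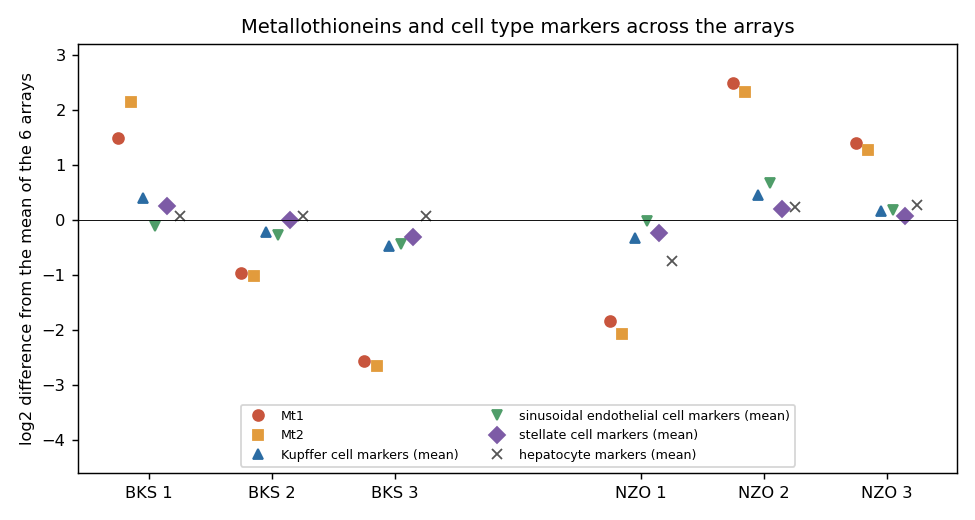
Difference from the mean of the 6 arrays (log2, vertical axis) for Mt1, Mt2 and the mean of 4 marker lists on each array. Mt1 and Mt2 lie together on every array, high on BKS 1, NZO 2 and NZO 3; the Kupffer cell markers have the same sign on each array with a much smaller range, and the hepatocyte markers are low on NZO 1.

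Mtf1, the zinc sensor that drives both metallothioneins, showed no strain difference past the test. None of its probe sets had their order of arrays, which only 20 of 18193 genes had, so nearly any gene would lack it. Its brightest probe set, 1418333_at, read 7.58, 8.28 and 7.84 in BKS and 7.44, 7.30 and 8.13 in NZO. In this probe set the lowest array was NZO replicate 2, which was the highest for Mt1 and Mt2. The means were 7.90 ± 0.35 (SD, n = 3) and 7.63 ± 0.45, a log2 difference of -0.27 (95% confidence interval -0.92 to 0.38, limma, adjusted p = 0.779). The other 4 probe sets gave differences from -0.10 to 0.11, and 2 of them, 1440414_at and 1452990_at, averaged below 5 in both strains. NZO replicate 2 was also the lowest array for 1452990_at, but it stood just below the highest for 1428979_at, 1429170_a_at and 1440414_at.

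The zinc importers among the members are Slc39a14, which the liver uses for zinc and manganese uptake and raises in inflammation, and Slc39a4, best known as the intestinal zinc importer. The brightest probe set of Slc39a14, 1427035_at, read 10.28, 10.63 and 10.40 in BKS and 9.29, 10.47 and 10.003 on the NZO arrays. The groups overlapped through NZO replicate 2, and NZO replicate 1 was the lowest array. The means were 10.44 ± 0.18 (SD, n = 3) and 9.92 ± 0.59, a log2 difference of -0.52 (95% confidence interval -1.21 to 0.18, limma, adjusted p = 0.577). Slc39a4 read 9.26, 9.97 and 10.31 in BKS and 8.71, 9.47 and 9.65 in NZO. Its lowest arrays were NZO replicate 1 and BKS replicate 1, the 2 arrays titled number 1. The difference was -0.57 (95% confidence interval -1.37 to 0.23, limma, adjusted p = 0.597). With the number 1 arrays as a block it had the same size and an adjusted p of 0.0655, where 6.55% of all genes passed. It was -0.55 between the number 1 arrays and -0.58 between the others, so it was of like size in both sets. Without NZO replicate 1 it was -0.28, and without BKS replicate 3 it was -0.34.

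The probe sets of Slc39a14 disagreed in sign. Probe set 1425649_at read 7.79, 7.53 and 6.89 in BKS and 8.31, 8.00 and 7.80 in NZO, so that every NZO array lay above every BKS array. Its difference was 0.64 (95% confidence interval 0.02 to 1.25, limma over all probe sets, adjusted p = 0.477). Probe set 1438490_at differed by 0.47 (adjusted p = 0.693) and 1457770_at, which averaged near the array medians, by 0.02 (adjusted p = 0.993). Taken on each array, 1425649_at minus 1427035_at was -2.50, -3.10 and -3.51 on the BKS arrays and -0.98, -2.47 and -2.21 on the NZO arrays. The strains did not overlap in this measure, and the exact permutation test gave p = 0.1, the smallest that 3 against 3 arrays allow (0.333 adjusted over the 10 pairs of probe sets compared). The probe sets thus gave no single direction for Slc39a14.

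The zinc exporters gave smaller differences. Slc30a1, the plasma membrane zinc exporter, read 9.45, 9.81 and 9.80 in BKS and 9.10, 9.71 and 9.70 in NZO by its brightest probe set. The number 1 array was the lowest in each strain. The log2 difference was -0.18 (95% confidence interval -0.70 to 0.33, limma, adjusted p = 0.826), and the second probe set gave -0.04. Repeated quantile normalization and cyclic loess turned the sign, to 0.07 and 0.09. Across the arrays on which Mt1 spanned a range of 16.6-fold and 20.3-fold within strains, Slc30a1 spanned 1.28-fold in BKS and 1.53-fold in NZO.

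Slc30a10, which exports manganese from hepatocytes, had the narrowest values of the 7 genes. Its brightest probe set, 1438751_at, read 9.37, 9.44 and 9.13 in BKS and 8.93, 9.25 and 9.26 in NZO, a log2 difference of -0.17 (95% confidence interval -0.57 to 0.24, limma, adjusted p = 0.784), and 0.07 and 0.09 with repeated quantile normalization and cyclic loess. The second, 1439934_at, read 8.94, 9.14 and 8.89 in BKS and 9.14, 9.42 and 9.56 in NZO, a difference of 0.38 (95% confidence interval 0.01 to 0.76, limma over all probe sets, adjusted p = 0.480). The lowest NZO value was above the highest BKS value by less than the rounding shown. The second minus the first probe set was -0.44, -0.31 and -0.23 on the BKS arrays and 0.21, 0.17 and 0.29 in NZO, a strain difference of 0.55 in this measure with no overlap (exact permutation p = 0.1, or 0.333 adjusted over the 10 pairs). As for Slc39a14, the 2 probe sets gave opposite signs. Of the 17 member probe sets, these 2 second probe sets were the ones whose strains did not overlap, where 15.3% of all probe sets had no overlap.

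**Figure D4:**
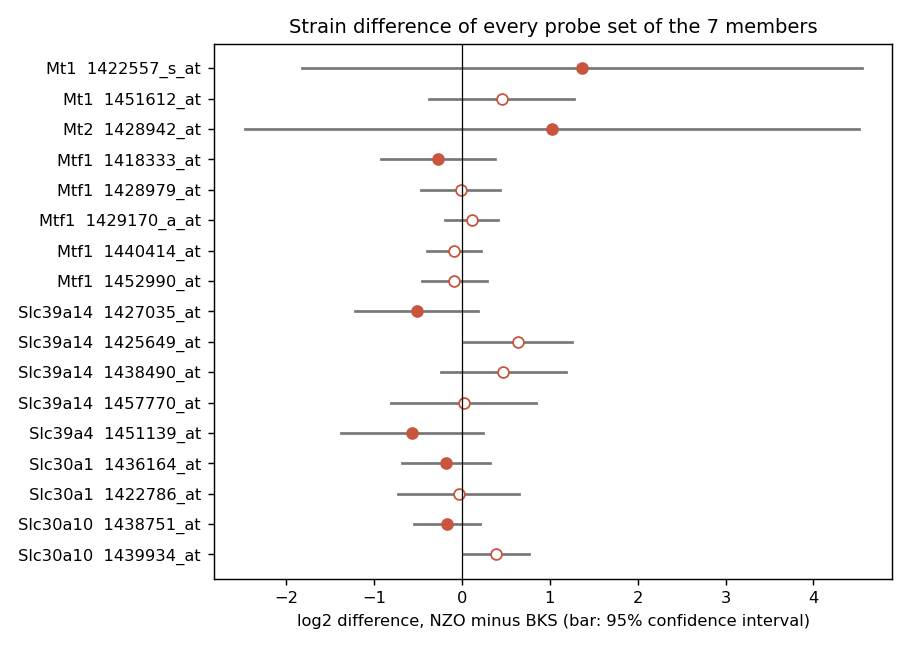
Log2 difference between strains (NZO minus BKS, horizontal axis) of the 17 probe sets of the 7 genes, with 95% confidence intervals from the fit over all probe sets; filled points are the brightest probe set of each gene. The intervals of Mt1 and Mt2 are the widest, and the probe sets of Slc39a14 and of Slc30a10 lie on both sides of 0.

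None of the 7 genes passed the strain test over 18193 genes, of which 0.742% passed (59 higher and 76 lower in NZO, an adjusted p below 0.05), and none had an unadjusted p below 0.05. Nor did any of the 17 probe sets, where 0.424% of all probe sets passed; 2 of them, those of Slc39a14 and Slc30a10 above, had an unadjusted p below 0.05.

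Few genes of the wider zinc transporter families passed. Of 14 ZIP genes, 1 was higher in NZO, none was lower and 13 did not pass, where 0.324% of all genes were higher. It was Slc39a2, a ZIP importer, which read 4.52, 4.07 and 4.21 in BKS and 5.52, 5.25 and 5.50 in NZO, a log2 difference of 1.15 (standard error 0.18, limma, adjusted p = 0.0413). Every NZO array lay above every BKS array, yet all 6 values were near or below the array medians, so the size rests on dim signals. With single arrays left out, Slc39a2 passed without NZO replicate 1 (limma, adjusted p = 0.0448). It did not pass when any 1 of the BKS arrays was dropped (0.0534, 0.248 and 0.216 for replicates 1, 2 and 3), nor without NZO replicate 2 (0.0774) or 3 (0.193). The median log2 difference of the 14 was -0.11, against -0.03 for all genes. The highest ZIP signal in both strains was that of Slc39a14, although probe sets of different genes do not share a scale.

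Of 10 ZnT genes none passed, and 9 lay below 0 (median -0.17), or 6 of 10 with repeated quantile normalization or cyclic loess. Slc30a5, a zinc transporter of the early secretory pathway, read 9.76, 10.46 and 10.07 in BKS and 8.96, 9.83 and 9.45 in NZO, a difference of -0.68 (limma, adjusted p = 0.401). Slc30a7, which loads zinc into the Golgi, was at -0.38 (adjusted p = 0.461) with no overlap between strains. Its second probe set read 7.14, 7.29 and 7.22 in BKS and 7.30, 7.48 and 7.09 in NZO, so there the strains overlapped. The difference had the opposite sign, at 0.07 (limma over all probe sets, adjusted p = 0.923). The strains did not overlap in 2 of the 10 ZnT genes, where 17.0% of all genes had no overlap. Slc30a5 had the highest ZnT signal in BKS and Slc30a1 in NZO. Of 4 metallothioneins none passed; Mt3, the neuronal form, was at 0.19 (adjusted p = 0.722) and Mt4, the form of stratified epithelia, at 0.11 (adjusted p = 0.865), both near or below the array medians.

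**Figure D5:**
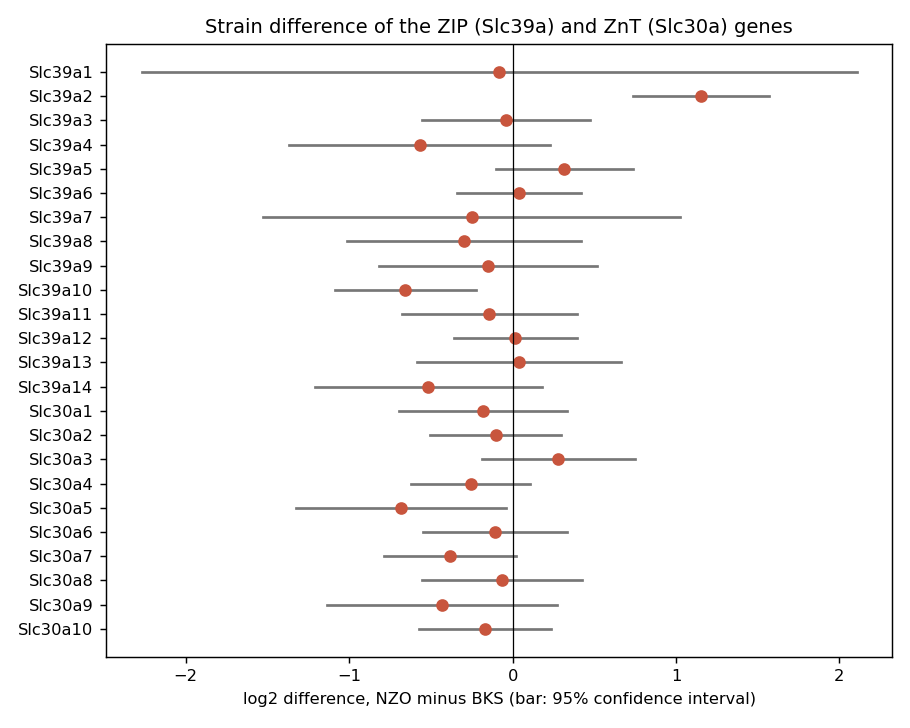
Log2 difference between strains (NZO minus BKS, horizontal axis) of 14 ZIP (Slc39a) and 10 ZnT (Slc30a) genes, each by its brightest probe set, with 95% confidence intervals. Slc39a2 stands to the right at 1.15, and the interval of Slc39a1 is the widest.

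Slc39a1, a plasma membrane ZIP importer, had the widest interval of the 24 genes. The number 1 arrays were low, at 6.82 (BKS) and 7.46 (NZO), and the other 4 arrays lay between 9.25 and 10.01.

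Of a list of 6 genes under Mtf1 control none passed (median -0.09, and 0.17 without the number 1 arrays). The list includes the member Slc30a1 and mixes genes that Mtf1 raises and represses, so its median has no single expected direction. Slc39a10, an importer that Mtf1 represses, read 6.77, 6.66 and 6.70 in BKS and 6.19, 6.25 and 5.72 in NZO, a difference of -0.66 (limma, adjusted p = 0.215), and the selenoprotein gene Selenow was at -0.84 (adjusted p = 0.217; 0.0283 in the blocked model). In neither gene did the strains overlap, where 17.0% of all genes had no overlap.

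Of 13 genes of copper handling none passed (median -0.33, and -0.19 without the number 1 arrays). In this list 9 lay below 0, or 7 with repeated quantile normalization or cyclic loess. Steap4, a metalloreductase, was at -1.20 (limma, adjusted p = 0.192; 0.0413 in the blocked model) and Atp7a, a copper pump, at -0.79 (adjusted p = 0.393). Of 8 genes of manganese handling none passed (median -0.27, and -0.13 without the number 1 arrays). All 8 lay below 0, or 5 with repeated quantile normalization and 4 with cyclic loess. Tmem165, a Golgi manganese transporter, was at -0.43 (adjusted p = 0.356), and Sod2, the mitochondrial manganese superoxide dismutase, at -0.72 (adjusted p = 0.395; 0.0402 in the blocked model).

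Glucocorticoids and interleukin-6 are both known to raise metallothionein expression, and their target genes were read beside Mt1 and Mt2. Of 14 glucocorticoid-induced genes none passed (median -0.00), and the median was 0.12 without the number 1 arrays. With the block 4 were higher and 1 lower, where 1.51% of all genes were higher and 5.04% lower. The kinase Sgk1 read 6.58, 6.80 and 6.05 in BKS and 8.61, 9.22 and 10.77 in NZO, a difference of 3.06 (limma, adjusted p = 0.0580; 0.00729 in the blocked model). Ddit4, a stress-induced brake on growth signalling, was at 1.19 (adjusted p = 0.158; 0.0347 in the blocked model). Both were higher on every NZO array than on any BKS array. The strains did not overlap in 4 of the 14 genes, where 17.0% of all genes had no overlap. The gene lower with the block was Klf9, at -1.38 (limma, adjusted p = 0.253, or 0.0399 in the blocked model). Klf9 was lower on every NZO array than on any BKS array. None of the 14 genes had the 3 highest arrays of Mt1, a count near the 5.32% of all genes that did. Zbtb16, a transcription factor, read 9.39, 8.26 and 7.65 in BKS and 7.82, 8.65 and 7.57 on the NZO arrays. The part of glucocorticoids in the metallothionein values was not tested.

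Of 23 acute-phase genes of the interleukin-6 and STAT3 response, none was higher and 1 was lower in NZO, where 0.418% of all genes were lower, and 22 did not pass. It was the serum amyloid gene Saa3, at 9.14, 9.32 and 9.001 in BKS and 7.79, 7.80 and 7.67 in NZO, a difference of -1.40 (standard error 0.15, limma, adjusted p = 0.0113). It lost the call when BKS replicate 2 (limma, adjusted p = 0.0909), BKS replicate 3 (0.0610) or NZO replicate 3 (0.0827) was dropped. The list's median was -0.53, with 22 members below 0, or 17 and 14 with repeated quantile normalization and cyclic loess. Without the number 1 arrays the median was -0.07 and 14 of 23 lay below 0, so the shift was smaller without those 2 arrays. NZO replicate 1 had the lowest hepatocyte signal, and the part of this or of either array in the shift was not tested. Of the 23 genes, 5 had the 3 highest arrays of Mt1, where 5.32% of all genes did. They were Apcs, Stat3, Serpina3n, Hpx and Il6ra. Stat3, the transcription factor of this response, read 11.20, 10.48 and 10.01 in BKS and 9.49, 10.78 and 10.68 in NZO. Lcn2 and Saa2 were picked after their values were seen, as 2 of the 8 genes with the largest spread within strains. Lcn2, an iron-scavenging acute-phase protein, read 11.51, 7.45 and 6.73 in BKS and 5.27, 5.02 and 4.85 in NZO, and Saa2 read 13.11, 10.36 and 10.14 in BKS and 7.33, 12.21 and 7.96 in NZO. Saa2 was thus high on BKS replicate 1 and NZO replicate 2, as the metallothioneins were, but not on NZO replicate 3. Lcn2 was low on all 3 NZO arrays.

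The 3' minus 5' signal of beta-actin, which grows as RNA or cDNA is truncated, was 1.72 to 2.33 in BKS and 1.29 to 1.39 on the NZO arrays. The strains did not overlap in it. It moved with every strain difference given here, and its part in them was not tested. The labels do not state outright that each array is a separate animal. The limma p-values set a strain difference against the spread between samples of a strain, and that spread may in part be technical.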

How the data were processed

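Liver RNA of 3 BKS and 3 NZO samples, grouped by their strain label, was measured on 1 array each. The authors deposited 1 log2 value for each probe set. The submitters' processing notes name RMA and Affymetrix Expression Console; versions, and whether other arrays were normalized with these 6, are not given in the sources used here. RMA corrects background, quantile-normalizes the arrays and summarises each probe set. No detection calls were used, and the number of arrays limits the precision.

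Of 45101 probe sets, 64 controls were left out, 34945 had 1 gene symbol, 932 had several and 9160 were unnamed here. Symbols were updated by gene ID to GRCm38.p6, where 18032 genes matched. For each gene the probe set of highest mean over the 6 arrays was used, which gave 18193 genes. The strain test was limma's moderated linear model (version 3.58.1, R 4.3.3, lmFit then eBayes, no covariate, two-sided, Benjamini-Hochberg adjustment over all 18193 genes, threshold 0.05), and further probe sets in the same model over all 45037. The model was tested on simulated data with independent noise for each gene, so that test did not cover shifts shared by the genes of an array. No 2 arrays held identical values.

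All 7 genes are described whatever their result. Each of 8 lists names its members past the test, up to 4, and a list with none names the 2 of lowest p. The transporter families also name their brightest member, and the likeness ranking its 5 leading genes for Mt1 and for Mt2. Mt4, Slc39a1, Marco, Stat3, Zbtb16, Klf9, Lcn2, Saa2 and the genes of largest spread were named outside this rule, after their values were seen. The genes and lists were chosen with earlier results of these data known. Replicate numbers are names in accession order. Other normalizations, a filter on dim genes, other probe set choices, a trended robust variance, array weights, the number 1 arrays as a block, and subsets of the arrays were tried. Python 3.11.15 with matplotlib 3.10.9 drew the figures.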

Additional observations from a re-analysis of the deposited data

How the results depend on the processing

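No paired analysis was possible because the strains share only 1 number in their titles. Mt1, Mt2, Mtf1 and Slc39a4 kept their direction, and none of the 7 genes passed, under the 10 alternatives that keep or reweight arrays or drop the number 1 arrays, except that Mt1 (3.71) and Mt2 (3.63) passed among the 2 against 2 arrays. With single arrays left out, Mt1 ran from 0.42 to 2.63, Mt2 from -0.049 (without BKS replicate 3) to 2.34, Mtf1 from -0.53 to -0.08, Slc39a14 from -0.79 to -0.20, Slc39a4 from -0.86 to -0.28, Slc30a1 from -0.30 to 0.022 (without NZO replicate 1) and Slc30a10 from -0.26 to -0.06, none of them past the test. The sign turned for Slc30a1 (0.073 and 0.086) and Slc30a10 (0.071 and 0.086) with repeated quantile normalization and cyclic loess, and with the mean of all probe sets for Slc30a10 (0.109) and Slc39a14 (0.152), which follows from probe sets of opposite sign. Mt1 was at 0.45 without _s_at probe sets.

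The count of all genes past the test was 135 and became 419 with repeated quantile normalization, 429 with cyclic loess, 281 with a trended and robust variance, 1298 with array weights, 1192 with the block and 912 among the 2 against 2 arrays, and 27 to 258 with 1 array left out. Members past the test were 2 of the 4 metallothioneins among the 2 against 2 arrays. ZIP genes numbered 2 with array weights, 0 with the filter on dim genes, where Slc39a2 was not tested, and 0 to 1 with an array left out. Genes of the list under Mtf1 control numbered 1 with the block, 1 among the 2 against 2 arrays, 3 with array weights and 0 to 1 with an array left out. Copper and manganese handling had 1 each with the block. Glucocorticoid-induced genes numbered 3 with repeated quantile normalization, 4 with cyclic loess, 1 with the filter, 1 with a trended and robust variance, 4 with array weights, 5 with the block, 4 among the 2 against 2 arrays and 0 to 2 with an array left out. Acute-phase genes numbered 2 with array weights, 4 with the block, 2 among the 2 against 2 arrays and 0 to 2 with an array left out. Apart from where stated, the cause was not tested.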

Other observations

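Sod1, a copper and zinc enzyme and the gene with the largest spread within strains, was low on the number 1 arrays, at 6.94 (BKS) and 9.80 (NZO), and lay between 12.11 and 12.82 on the other 4. Insig1 read 5.20 and 5.71 on the same 2 arrays and 8.65 to 10.29 on the rest. Both genes, like Slc39a1, were thus low on the arrays titled number 1 in each strain, a pattern different from that of Mt1 and Mt2. Dbp, whose transcript cycles with time of day in liver, read 5.63, 9.66 and 11.10 in BKS and 6.07, 9.31 and 6.64 in NZO. All were chosen after their values were seen, from the 6 with the largest spread within strains.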
